A study of Mus musculus with 63 samples.

Results

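The flavin-containing monooxygenase genes Fmo1, Fmo2, Fmo4 and Fmo5 were followed through mouse small intestinal organoids and intestinal epithelial cells (IECs) in which the Mediator kinases CDK8 and CDK19 had been removed singly or together. The 4 genes were taken by symbol from the deposited count tables, which list 54752 genes each. They were chosen by measured values: Fmo1 was higher in double-knockout organoids and IECs, and Fmo5 was lower on day 3 after Cdk8 deletion, so those values, and all others of the same gene that rest on the same libraries, are given as a description, with no test. The same holds for Fmo1 in the time course and in Wnt3-CM, where the double knockout was made by 4-OHT. Fmo2 and Fmo4 were tested throughout, and Fmo1 and Fmo5 in the other comparisons.

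Flavin-containing monooxygenases are enzymes of the endoplasmic reticulum membrane that use FAD, NADPH and molecular oxygen to add an oxygen atom to soft nucleophiles, chiefly nitrogen and sulfur atoms of drugs, dietary amines and thioethers. Fmo1 oxidizes tertiary amines and also converts hypotaurine to taurine. Fmo5 stands apart chemically, since it inserts oxygen next to carbonyl groups and accepts few classical substrates, and it is a well-known member of the family in the gut and liver. Fmo2 is best known from lung, and the substrates of Fmo4 are poorly defined. The enzymes act beside cytochromes P450 in xenobiotic metabolism, and enterocytes, the absorptive cells of the villus, are the usual site of such enzymes in the small intestine.

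In the GENCODE vM21 annotation of mouse genome build GRCm38, Fmo4 (ENSMUSG00000026692.12, chr1:162793188-162813972), Fmo1 (ENSMUSG00000040181.14, chr1:162829561-162866610) and Fmo2 (ENSMUSG00000040170.13, chr1:162874317-162898726) are neighbours on the minus strand. There are 15.6 kb between Fmo4 and Fmo1 and 7.7 kb between Fmo1 and Fmo2. Fmo5 (ENSMUSG00000028088.14) lies alone on the plus strand at chr3:97628804-97655282. The counts cover whole genes, with 11 blocks of merged exons in Fmo1 and Fmo4 and 9 in Fmo2 and Fmo5, and no other annotated gene overlaps any of the 4. Of the windows of 100 bases in the Fmo1 exons, 5.34% also occur in another gene, and none do for the other members. Fmo4 and Fmo5 sit on different chromosomes and their levels moved together in the organoids (below), the day 3 values that chose Fmo5 among them. The sequence before each start is therefore shown for comparison. Of the RefSeq promoter entries for GRCm38.p6 (250 bases before to 50 bases after the start), 3 of the 4 members had one, Fmo1 being without. The stretches printed are the bases of each entry outside annotated exons, 5′ to 3′, with a GC box in capitals.
Fmo4, chr1:162812654-162812799, minus strand, 146 bases: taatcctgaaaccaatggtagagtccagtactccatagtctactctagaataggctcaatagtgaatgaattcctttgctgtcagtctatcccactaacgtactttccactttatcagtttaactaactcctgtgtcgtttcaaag
Fmo5, chr3:97628769-97628803, plus strand, 35 bases: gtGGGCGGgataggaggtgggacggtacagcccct

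Both strands of the 300-base windows were searched for 7 motifs. The core promoter motifs were the TATA box, written TATAAA, which occurs in 13.6% of all 32851 windows, and the GC box, written GGGCGG, which occurs in 35.7%. For the aryl hydrocarbon receptor the core of the xenobiotic response element was used, GCGTG, present in 32.4% of windows. The core of the antioxidant response element, TGACNNNGC, where N is any base, was present in 12.4%. The TCF/LEF site that mediates Wnt signaling was searched as CTTTGAT and was present in 3.73%. For hepatocyte nuclear factors the HNF4 site CAAAGTCCA (0.475% of windows) and the palindromic HNF1 consensus site (0.00913%) were used. The Fmo5 window held the GC box printed above, 248 bases before the start, and a TATA box on the reverse strand 195 bases before it, and these matches do not overlap. The Fmo4 window and both Fmo2 windows held none of the 7, which says only that these letters are not in these windows. The printed Fmo4 and Fmo5 stretches thus share no searched motif.

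All animals were of the C57BL/6 strain. CreERT2 was driven by the Villin promoter, which is active in the gut epithelium, and it removes floxed Cdk8 after tamoxifen in mice or 4-hydroxytamoxifen (4-OHT) in organoids. Organoids of 5 genotypes were treated with 100 nM 4-OHT for 24 h and collected on day 7: VillinCreERT2 (the Cre control), C57BL/6 without Cre, VillinCreERT2 with Cdk8 fl/fl (CDK8iIEC-KO), Cdk8 fl/fl with Cdk19 -/- and no Cre (Cdk8fl/fl/Cdk19-/-), and VillinCreERT2 with Cdk8 fl/fl and Cdk19 -/- (CDK8iIEC-KO/Cdk19-/-, the double knockout). IECs came from VillinCreERT2 and CDK8iIEC-KO/Cdk19-/- mice 14 days after 5 daily injections of 80 mg/kg tamoxifen. In the time course, another VillinCreERT2/Cdk8 fl/fl/Cdk19 -/- organoid line received 100 nM 4-OHT or 0.001% ethanol (EtOH) and was collected on days 3, 5, 7 and 10, so that every library of it lacks CDK19 and only the 4-OHT libraries were set to lose CDK8. The same line was grown in Wnt3-conditioned medium (Wnt3-CM) to day 10, and an organoid line of another mouse, VillinCreERT2/Cdk8 fl/fl with 1 deleted and 1 kinase-dead Cdk19 allele (CDK8iIEC-KO/Cdk19D173A/- after 4-OHT), was collected on day 7 after 4-OHT or EtOH. The 4-OHT and EtOH arms differ in 4-OHT and in Cre activity as well as in CDK8. The VillinCreERT2 line with intact Cdk8 was not collected after EtOH. These effects therefore cannot be told apart in the time course, Wnt3-CM or Cdk19 D173A cultures. Each group had 3 libraries. Organoid replicates are cultures of 1 line per group, so p-values measure the spread between cultures and not between mice, whereas each IEC library was from its own mouse.

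Across the 57 libraries used (19 groups), total counts ran from 15485959 to 32909565, with a median of 19374952. Levels are given as CPM, the counts of a gene relative to all counts of its library, scaled for composition within each count table. All 12 enterocyte markers were detected in each of the 19 groups. Counts over whole genes do not show whether single exons were deleted, so the targeted genes do not check the genotypes here: mean Cdk8 was 66.3 CPM in double-knockout, 80.6 CPM in CDK8iIEC-KO and 75.6 CPM in VillinCreERT2 organoids, and mean Cdk19 was 27.7, 29.0 and 28.1 CPM there and 38.1 to 58.4 CPM in the groups of the Cdk19 -/- time course. The VillinCreERT2 and C57BL/6 organoid lines expressed Xist and no Ddx3y, a Y-linked gene, while all 3 knockout lines expressed Ddx3y (56.6 to 65.5 CPM on average) and almost no Xist, so genotype and sex of the source mouse cannot be told apart in those comparisons. Total counts ran from 15485959 to 18440256 in double-knockout, C57BL/6 and Cdk8fl/fl/Cdk19-/- organoids. They ran from 20424462 to 21449826 in VillinCreERT2 and CDK8iIEC-KO organoids, whose column names also differ in form. Double knockout or C57BL/6 against VillinCreERT2, and double knockout against CDK8iIEC-KO, cross this split, and its part was not tested. The time course and Wnt3-CM arms share 1 Ddx3y-positive line, and both Cdk19 D173A arms share 1 Xist-positive line. In bulk RNA, fewer cells of a type and less RNA per cell cannot be told apart.

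Fmo5 gave most of the family's transcripts everywhere, Fmo4 the next largest amount, and Fmo1 and Fmo2 little, except Fmo1 in the double-knockout line of the 5 genotypes and in double-knockout IECs. On a scale of CPM per kb of exon, where levels of different genes can be compared, Fmo5 made up 66.6% to 82.0% of the summed level of the 4 genes as a group mean, and Fmo4 made up 16.3% to 27.4%. Fmo1 made up 2.15% in VillinCreERT2 organoids and 8.93% in double-knockout organoids, and 1.97% and 9.06% in the corresponding IECs. In CDK8iIEC-KO organoids it made up 3.21%, and in 4-OHT cultures 1.28% to 1.70% over the days of the time course and 0.999% in Wnt3-CM. Fmo2 stayed at or below 1.49% as a group mean. Fmo6 had reads in 4 libraries (at most 2) and Fmo9 in 0 of the 57.

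Within each gene, the span between groups also differed. For Fmo1 the highest group mean was 248 times the lowest (61.0 CPM in double-knockout IECs and 0.245 CPM in EtOH cultures in Wnt3-CM), against 27.0 times for Fmo2, 4.89 times for Fmo4 and 4.00 times for Fmo5. The lowest Fmo1 mean rests on 1, 5 and 8 reads, so its ratio is loosely set. Fmo1 in double-knockout IECs and double-knockout organoids overlapped, and a gap separated both from the next group, CDK8iIEC-KO organoids at 13.0 CPM. From there down, neighbouring groups in the Fmo1 order overlapped except below the 4-OHT cultures of day 10, below Cdk8fl/fl/Cdk19-/- organoids, and above the lowest group. Levels in different count tables were scaled separately, so this order is a description.

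In organoids of the 5 genotypes, the double knockout had the highest Fmo1 and the highest Fmo4, C57BL/6 the lowest Fmo1 and CDK8iIEC-KO the lowest Fmo4. Fmo5 shifted by less than 1.5-fold in every pair, and Fmo2 was low in all 5 lines. A gene was called in a comparison when the edgeR quasi-likelihood test gave a Benjamini-Hochberg adjusted p below 0.05 and the fold was above 1.5.

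Fmo1 stood at 66.4, 54.2 and 60.8 CPM in the 3 CDK8iIEC-KO/Cdk19-/- organoid libraries, from 1203, 961 and 1098 reads. In VillinCreERT2 organoids it stood at 8.83, 8.35 and 9.85 CPM and in C57BL/6 organoids at 2.41, 3.41 and 2.5 CPM. The single knockouts gave 12.3, 12.2 and 14.5 CPM in CDK8iIEC-KO organoids and 5.44, 5.59 and 5.87 CPM in Cdk8fl/fl/Cdk19-/- organoids. Thus all 3 double-knockout libraries lay far above the other 12, and the other 4 groups did not overlap among themselves either, C57BL/6 being lowest. The description of the double knockout against VillinCreERT2 is a log2 fold change of 2.75 ± 0.10 (SE), that is 6.71-fold, from means of 60.5 ± 6.08 CPM (SD, n = 3) and 9.01 ± 0.766 CPM (SD, n = 3). Against the mean of both control lines the log2 value was 3.59. Against CDK8iIEC-KO organoids the difference was 2.22 ± 0.091 and against Cdk8fl/fl/Cdk19-/- organoids 3.42 ± 0.11 on the same log2 scale.

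Fmo1 also differed between the single knockouts and the controls. Cdk8fl/fl/Cdk19-/- organoids exceeded their C57BL/6 control by 1.01 ± 0.16 (log2, SE; adjusted p = 4.23e-05), which was called. Beside it, enterocyte markers ran from 14831 to 17380 CPM in these organoids against 13818 to 14599.9 CPM in C57BL/6, higher without overlap. Of the 12 enterocyte markers, 0 were called (median log2 0.12). Paneth cell markers ran from 4031 to 4431 CPM against 5019 to 6231 CPM in C57BL/6. Stem cell markers ran from 1036 to 1201 against 1587 to 1677 CPM and enteroendocrine cell markers from 496 to 535 against 635 to 704 CPM. Tuft cell and proliferation markers were lower than in C57BL/6 too, by smaller margins and without overlap. Markers of the distal small intestine ran from 286 to 348 against 175 to 207 CPM and those of the proximal small intestine from 296 to 323 against 265 to 271 CPM, and the part of all these in the Fmo1 difference was not tested. CDK8iIEC-KO and C57BL/6 organoids were set against VillinCreERT2 libraries that the choice of Fmo1 had used, so their differences are described only. CDK8iIEC-KO organoids stood 0.53 ± 0.11 above VillinCreERT2 organoids, a 1.44-fold difference, and C57BL/6 organoids stood 3.22-fold below them (log2 -1.69 ± 0.14). The single-knockout values therefore depended on the control. Against the mean of both control lines, Cdk8fl/fl/Cdk19-/- organoids differed by 0.17 (adjusted p = 0.347) and were no longer called, and the described CDK8iIEC-KO difference was 1.37.

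Fmo4 stood at 98.3, 94.2 and 96.6 CPM in double-knockout organoids. It stood at 47.9, 54.3 and 53.8 CPM in VillinCreERT2 organoids and 38.7, 36.5 and 40.8 CPM in CDK8iIEC-KO organoids. All double-knockout values were above, and all CDK8iIEC-KO values below, those of the VillinCreERT2 line. The double knockout rose 1.85-fold over VillinCreERT2 (log2 0.89 ± 0.060, adjusted p = 5.27e-12). CDK8iIEC-KO differed by -0.43 ± 0.063 (adjusted p = 1.01e-05), short of the fold cutoff. The direct comparison of double knockout with CDK8iIEC-KO gave 1.32 ± 0.062 (adjusted p = 3.1e-15), which was called. Fmo4 ran at 52.6, 52.6 and 55.8 CPM in C57BL/6 and 66.3, 68.2 and 63.3 CPM in Cdk8fl/fl/Cdk19-/- organoids. The latter were above all C57BL/6 values and below all double-knockout values. That difference from C57BL/6 was 0.30 ± 0.062 (adjusted p = 0.00127), and the double knockout exceeded Cdk8fl/fl/Cdk19-/- by 0.55 ± 0.060 (adjusted p = 5.7e-08), neither reaching 1.5-fold.

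Fmo5 showed smaller steps in the same lines. Double-knockout organoids held 408, 432 and 382 CPM, VillinCreERT2 organoids 276, 296 and 296 CPM and CDK8iIEC-KO organoids 275, 279 and 320.2 CPM. The double knockout lay above both of the others, which overlapped. Its difference from VillinCreERT2 was 0.49 ± 0.059 (adjusted p = 1.35e-07) and from CDK8iIEC-KO 0.48 ± 0.059 (adjusted p = 1.62e-07), both under 1.5-fold. Cdk8fl/fl/Cdk19-/- organoids, at 397, 391 and 375 CPM, overlapped the double knockout (difference 0.069 ± 0.059, adjusted p = 0.391). They exceeded C57BL/6 organoids, at 313, 322 and 327 CPM, by 0.28 ± 0.059 (adjusted p = 0.00165).

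Fmo2 stood near 1 CPM throughout, with 1.43, 1.13 and 1.33 CPM in double-knockout, 0.854, 0.864 and 0.750 CPM in VillinCreERT2 and 0.859, 1.51 and 1.21 CPM in CDK8iIEC-KO organoids. The double-knockout values lay above the VillinCreERT2 values and overlapped those of CDK8iIEC-KO. The difference from VillinCreERT2, 0.65 ± 0.29, had an adjusted p of 0.0598 and was not called, although 4 of the 8 other fits outside single-library omissions gave an adjusted p below 0.05 (0.0427 to 0.128 over the 8). In Cdk8fl/fl/Cdk19-/- against C57BL/6 organoids the Fmo2 difference was 0.075 ± 0.32 (adjusted p = 0.909).

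Counted over the members tested, 1 of 3 was called in double knockout against VillinCreERT2 (Fmo4; 19.4% of the 15125 genes tested were called) and 1 of 3 in double knockout against CDK8iIEC-KO (Fmo4; 20.4% of genes). The count was 0 of 3 in double knockout against Cdk8fl/fl/Cdk19-/- (10.6% of genes), 0 of 3 in CDK8iIEC-KO against VillinCreERT2 (7.23%), 1 of 4 in Cdk8fl/fl/Cdk19-/- against C57BL/6 (Fmo1; 5.25%) and 0 of 3 between the control lines (26.4%). The edgeR test gave unadjusted p below 0.05 for 1 of 3 members in the first of the counts of 0 and for 1 of 3 in the second, and for 1 of 3 between the control lines. With so few members these shares cannot be set apart from the background. Several comparisons share the double-knockout or VillinCreERT2 libraries and are not independent. Summed enterocyte markers ran from 16600 to 17806 CPM in double-knockout, 15199 to 18270 CPM in VillinCreERT2 and 10516 to 12024 CPM in CDK8iIEC-KO organoids, so they were lower in the group with the lowest Fmo4. Markers of the other epithelial cells stood lower in double-knockout than in VillinCreERT2 organoids: Paneth cell markers ran from 861 to 899 against 2798 to 2917 CPM, goblet cell markers from 2081 to 2264 against 3206 to 3413 CPM, tuft cell markers from 3.03 to 4.12 against 16.9 to 18.5 CPM and stem cell markers from 705 to 969 against 1615 to 1931 CPM. Markers of the distal small intestine ran from 148 to 197 against 433 to 857 CPM, and 5 of 5 were called lower (median log2 -1.71). CDK8iIEC-KO organoids also lay below VillinCreERT2 in distal (200 to 211 CPM), goblet cell (2283 to 2477 CPM), Paneth cell (2460 to 2664 CPM) and tuft cell markers (14.1 to 14.3 CPM). They lay above it in proliferation markers (1054 to 1165 against 856 to 917 CPM). The part of these cells and regions in the Fmo1, Fmo4 and Fmo5 differences was not tested.

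**Figure D1:**
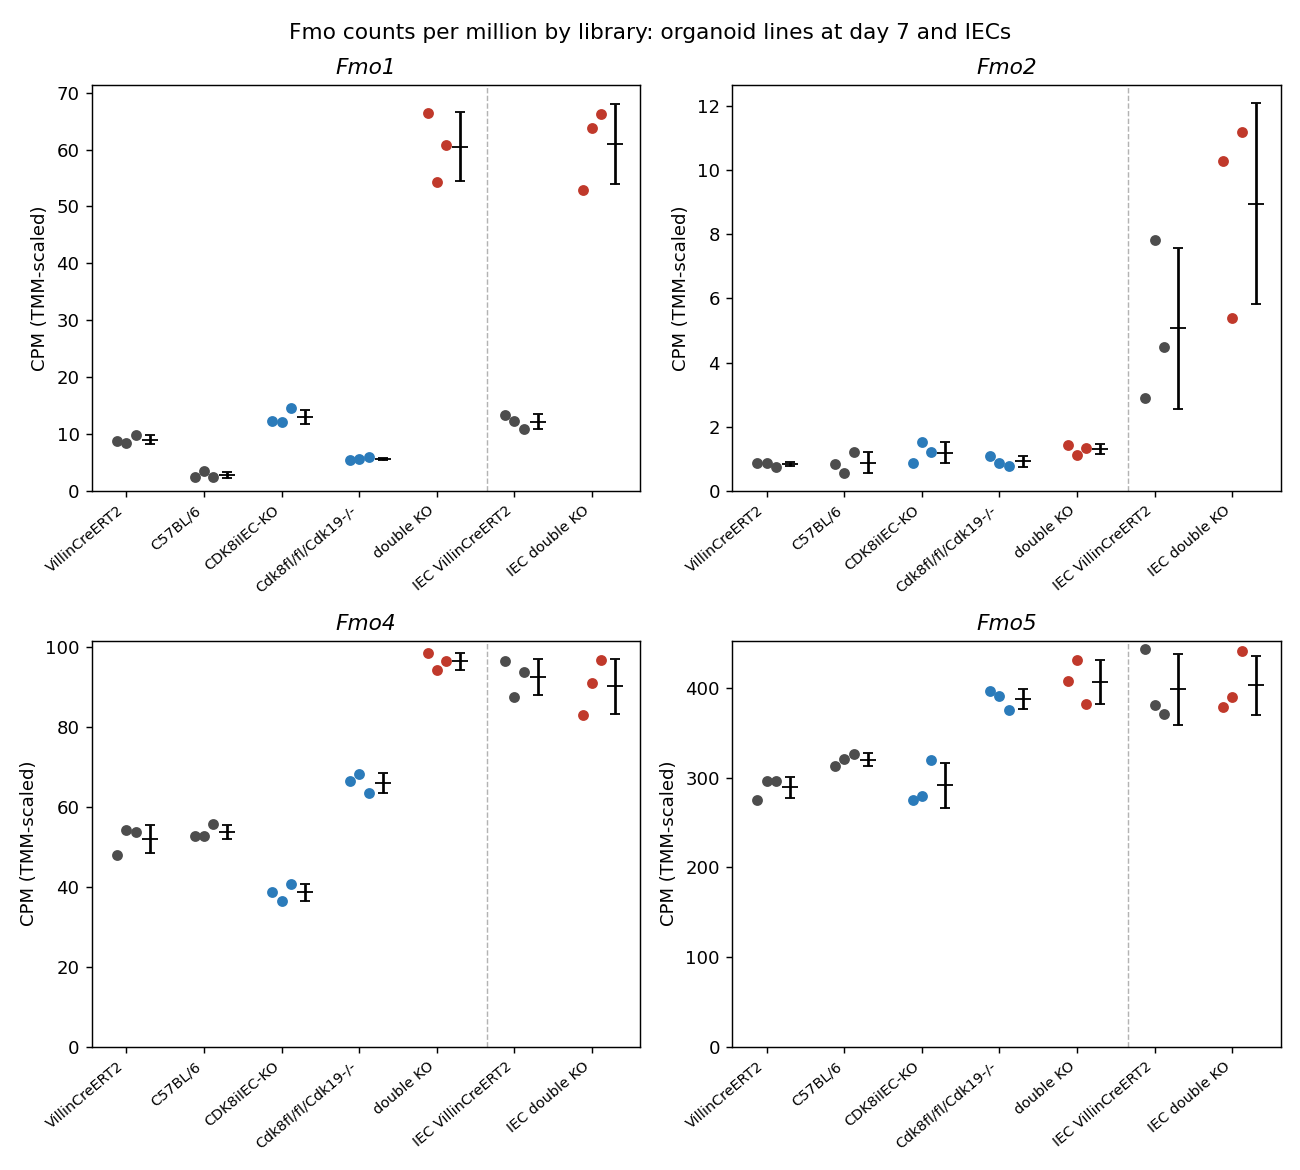
CPM of each member (linear axis from 0, 1 panel per gene) in the 5 organoid lines of day 7 and in IECs. Points are libraries, and the bars beside them give mean and SD (n = 3). The 3 double-knockout organoid libraries sit at 54.2 to 66.4 CPM for Fmo1, above the other 12 organoid libraries, and the double-knockout IECs sit at 52.9 to 66.2 CPM.

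In IECs taken from mice, Fmo1 was again higher in the double knockout, while Fmo4 and Fmo5 did not pass the test. The Fmo1 values were 52.9, 63.8 and 66.2 CPM in CDK8iIEC-KO/Cdk19-/- IECs and 13.4, 12.2 and 10.9 CPM in VillinCreERT2 IECs. The groups did not overlap. The description is a log2 fold change of 2.33 ± 0.13 (SE), or 5.01-fold, from 61.0 ± 7.08 CPM (SD, n = 3) and 12.2 ± 1.27 CPM (SD, n = 3). Fmo4 stood at 82.8, 90.9 and 96.6 CPM against 96.3, 87.5 and 93.6 CPM, overlapping, with a difference of -0.037 ± 0.095 (adjusted p = 0.851). Fmo5 stood at 379, 390.4 and 441 CPM against 444, 382 and 371 CPM, overlapping too, with a difference of 0.016 ± 0.11 (adjusted p = 0.952). For both genes the difference is small beside its SE of about 0.1 on the log2 scale, although a missed threshold does not show equality.

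Fmo2 had its highest levels in IECs, at 10.3, 5.39 and 11.2 CPM in the double knockout and 2.91, 7.83 and 4.49 CPM in VillinCreERT2 IECs. The groups overlapped, since double-knockout replicate 2 was the lowest of its group and VillinCreERT2 replicate 2 the highest of its own. The difference was 0.82 ± 0.42 (adjusted p = 0.329). Of the 3 members tested, 0 were called, where 1.5% of all 15182 genes were called (0 of the 3 had an unadjusted p below 0.05 by the edgeR test). Markers of cells other than epithelium moved with the groups and with single libraries. The 8 mesenchyme markers summed to 983, 608 and 464 CPM in double-knockout IECs and to 12.9, 895 and 56.1 CPM in VillinCreERT2 IECs, and the 8 immune markers to 1239, 825 and 751 CPM and to 130, 432 and 150 CPM, so both sums were highest among controls in the control library with the highest Fmo2, but lowest among double knockouts in the double-knockout library with the highest Fmo2 (replicate 3). Endothelial markers ran from 6.97 to 13.0 CPM against 1.59 to 4.08 CPM, and pancreatic markers from 5.89 to 66.4 CPM against 0.428 to 5.44 CPM. Fmo2 is expressed in stromal and endothelial cells of several tissues, and the part of such cells in its IEC values was not tested. Double-knockout replicate 2 was also the only one of the 6 with Ddx3y (30.2 CPM) and hardly any Xist (1.11 CPM). With both libraries numbered 2 left out, a choice made after seeing the data, the Fmo2 difference was 1.53, while Fmo1 was 2.30, Fmo4 -0.082 and Fmo5 0.012. For Fmo2 this leaves out the lowest double-knockout and the highest control library, so the larger difference follows from the omission and no test is read from it. Among epithelial cells, Paneth cell markers ran from 1099.9 to 2339 CPM in double-knockout and 4024 to 6676 CPM in VillinCreERT2 IECs, goblet cell markers from 5157 to 7408 and 12281 to 14642 CPM, stem cell markers from 363 to 602 and 844 to 1178 CPM, and tuft cell markers from 25.9 to 44.9 and 93.7 to 126 CPM. Markers of the distal small intestine ran from 138 to 186 and 287 to 364 CPM. Enterocyte markers (40456 to 47936 and 43980 to 46744 CPM) and enteroendocrine cell markers (194 to 250 and 231 to 307 CPM) overlapped between the groups. The part of any of these cells or regions in the Fmo1 difference was not tested.

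The time course showed Fmo4 and Fmo5 below their EtOH controls on day 3 and above them from day 5 on, whereas Fmo1 was above its control on all 4 days. Fmo2 separated from its control on days 7 and 10. Since the EtOH arm was sampled on each day, every value below is set against EtOH cultures of the same day.

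On day 3, Fmo5 stood at 121, 132 and 116 CPM after 4-OHT and 303, 268 and 289.9 CPM after EtOH. The arms lay far apart, with means of 123 ± 8.32 CPM (SD, n = 3) and 287 ± 17.4 CPM (SD, n = 3), that is a log2 fold change of -1.22 ± 0.072 (SE) or 2.34-fold lower after 4-OHT; this value chose the gene and carries no test. Fmo4 was at 25.4, 25.9 and 25.9 CPM after 4-OHT and 43.4, 41.3 and 41.1 CPM after EtOH on day 3. Its arms did not overlap, and Fmo4 fell 1.63-fold (log2 -0.70 ± 0.11, adjusted p = 9.7e-06). Fmo1 was at 3.47, 2.67 and 3.11 CPM after 4-OHT and 1.40, 0.850 and 1.70 CPM after EtOH, already without overlap (1.22 ± 0.25, described only). Fmo2, at 1.46, 1.29 and 1.05 CPM against 1.24, 0.531 and 0.851 CPM, overlapped (difference 0.53 ± 0.31, adjusted p = 0.19). Thus 1 of the 2 members tested was called on day 3, with 12.4% of 15447 genes called. The 12 enterocyte markers also stood lower, summing to 3217 to 3749 CPM after 4-OHT and 6957 to 7560 CPM after EtOH, with none of the 12 at 0. On that day tuft cell markers (10.0 to 13.6 against 18.9 to 22.4 CPM) and markers of the distal small intestine (343 to 391 against 489.9 to 520.4 CPM) were lower after 4-OHT as well, and stem cell (2592 to 2666 against 2109 to 2133 CPM) and proliferation markers (847 to 905 against 728 to 796 CPM) were higher. Their part in the Fmo4 and Fmo5 values was not tested.

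From day 5 the Fmo5 difference had the opposite sign. Fmo5 stood at 421, 375 and 367 CPM after 4-OHT and 327, 349.8 and 285 CPM after EtOH on day 5, with the 4-OHT arm higher throughout (difference 0.27 ± 0.070, adjusted p = 0.00257, below 1.5-fold). On day 7 the values after 4-OHT were 467, 488 and 434 CPM, against 266, 273 and 259 CPM after EtOH. This 1.74-fold rise was called (log2 0.80 ± 0.070, adjusted p = 2.61e-10). By day 10 both arms stood lower, at 263, 251 and 258 CPM against 185, 196 and 193 CPM, still without overlap (difference 0.42 ± 0.070, adjusted p = 1.24e-05, below 1.5-fold).

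Fmo4 also stood above its EtOH control from day 5 on. On day 5 it stood at 79.3, 74.4 and 70.7 CPM after 4-OHT against 41.8, 52.6 and 38.1 CPM after EtOH, on day 7 at 91.4, 78.7 and 68.3 against 45.5, 50.4 and 40.6 CPM, and on day 10 at 68.8, 58.9 and 63.2 against 32.3, 27.0 and 28.2 CPM. The 4-OHT arm was above the EtOH arm in every library on all 3 days. The log2 fold changes were 0.76 ± 0.10 (adjusted p = 2.4e-06), 0.80 ± 0.10 (adjusted p = 4.14e-07) and 1.13 ± 0.11 (adjusted p = 2.37e-09), all called. The turn itself was tested as the mean response of days 5, 7 and 10 minus the response of day 3: for Fmo4 it was 1.6 ± 0.12 (log2, SE; adjusted p = 4.99e-11), and for Fmo5, described only, 1.72 ± 0.082. Enterocyte markers summed to 8959 to 9219 CPM after 4-OHT against 8672 to 12468 CPM after EtOH on day 5, 11980 to 13988 against 9301 to 11512 CPM on day 7, and 9458 to 11123 against 7755 to 9311 CPM on day 10. They overlapped on day 5 and were higher after 4-OHT on days 7 and 10. Paneth cell markers were lower after 4-OHT on each of these days, with 2687 to 3045 against 5151 to 6278 CPM on day 5, 1911 to 2173 against 5049 to 6138 CPM on day 7 and 2214 to 2631 against 8280.2 to 8528 CPM on day 10. On day 7, stem cell markers summed to 869 to 1267 against 2162 to 2572 CPM and proliferation markers to 412 to 589.7 against 781 to 942 CPM. The part of these cells in the Fmo1, Fmo4 and Fmo5 values was not tested.

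Fmo1 was 8.17, 8.40 and 6.39 CPM after 4-OHT and 2.06, 2.23 and 2.85 CPM after EtOH on day 5. On day 7 it was 7.93, 10.7 and 6.84 CPM against 2.22, 3.31 and 2.54 CPM, and on day 10 it was 6.72, 7.07 and 6.66 CPM against 2.13, 1.26 and 1.78 CPM. The arms did not overlap on any day. The described log2 fold changes were 1.68 ± 0.21, 1.65 ± 0.20 and 1.98 ± 0.22, and the later responses minus that of day 3 came to 0.55 ± 0.29, a value that ran from 0.30 without EtOH replicate 3 of day 3 to 0.77 without EtOH replicate 2 of that day. On day 7 the mean after 4-OHT, 8.47 CPM, was well below the 60.5 CPM of the double-knockout line in the comparison of 5 genotypes, although genotype, treatment and day match; the tables were scaled separately and the lines come from different mice.

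Fmo2 stood at 0.908, 1.26 and 1.11 CPM after 4-OHT and 0.596, 0.860 and 0.932 CPM after EtOH on day 5, overlapping (difference 0.45 ± 0.32, adjusted p = 0.284). On day 7 it stood at 1.46, 1.80 and 1.75 CPM (27, 35 and 33 reads) against 0.403, 0.346 and 0.305 CPM (8, 7 and 6 reads), and on day 10 at 0.746, 1.27 and 1.08 against 0.339, 0.455 and 0.203 CPM. The arms were apart on both days. Fmo2 rose 4.68-fold on day 7 (2.23 ± 0.35, adjusted p = 5.05e-06) and 3.07-fold on day 10 (1.62 ± 0.37, adjusted p = 0.000741), both called. The means after 4-OHT lay between 1.03 and 1.67 CPM over the 4 days, while EtOH cultures of day 10 were 2.60-fold below those of day 3 (-1.38 ± 0.39, adjusted p = 0.00245). The later responses minus that of day 3 came to 0.90 ± 0.37 (adjusted p = 0.048), a call that depended on the fit: it was lost under 5 other settings and on leaving out 17 of the 24 libraries in turn, the smallest value being 0.55 without EtOH replicate 1 of day 3. Tuft cell markers ran from 3.29 to 4.48 CPM after 4-OHT on day 7 against 10.6 to 15.4 CPM after EtOH. Goblet cell markers ran from 2583 to 2880 against 3203 to 3304 CPM on that day. Endothelial markers, low in both arms, ran from 1.33 to 2.16 against 0.544 to 1.06 CPM on day 7. On day 10 they ran from 0.746 to 1.13 against 0.203 to 0.405 CPM. The part of these cells in the Fmo2 values was not tested.

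In EtOH cultures alone, between days 3 and 10, Fmo4 shifted by -0.52 ± 0.11 (adjusted p = 0.000119), just under the fold cutoff, and was called without EtOH replicate 1 of day 10 (-0.60). Fmo5 by description shifted by -0.58 ± 0.070 and Fmo1 by 0.39 ± 0.27. Of the members tested, 1 of 3 was called on day 5 (Fmo4; 13.2% of genes called), 3 of 3 on day 7 (Fmo2, Fmo4 and Fmo5; 18.3%) and 2 of 3 on day 10 (Fmo2 and Fmo4; 15.8%). In EtOH day 10 against day 3 it was 1 of 2 (Fmo2; 38.4%), and in later responses minus day 3 it was 2 of 2 (Fmo2 and Fmo4; 23.1%). The comparisons of each day share no library, but the later-minus-day-3 difference uses all of them.

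**Figure D2:**
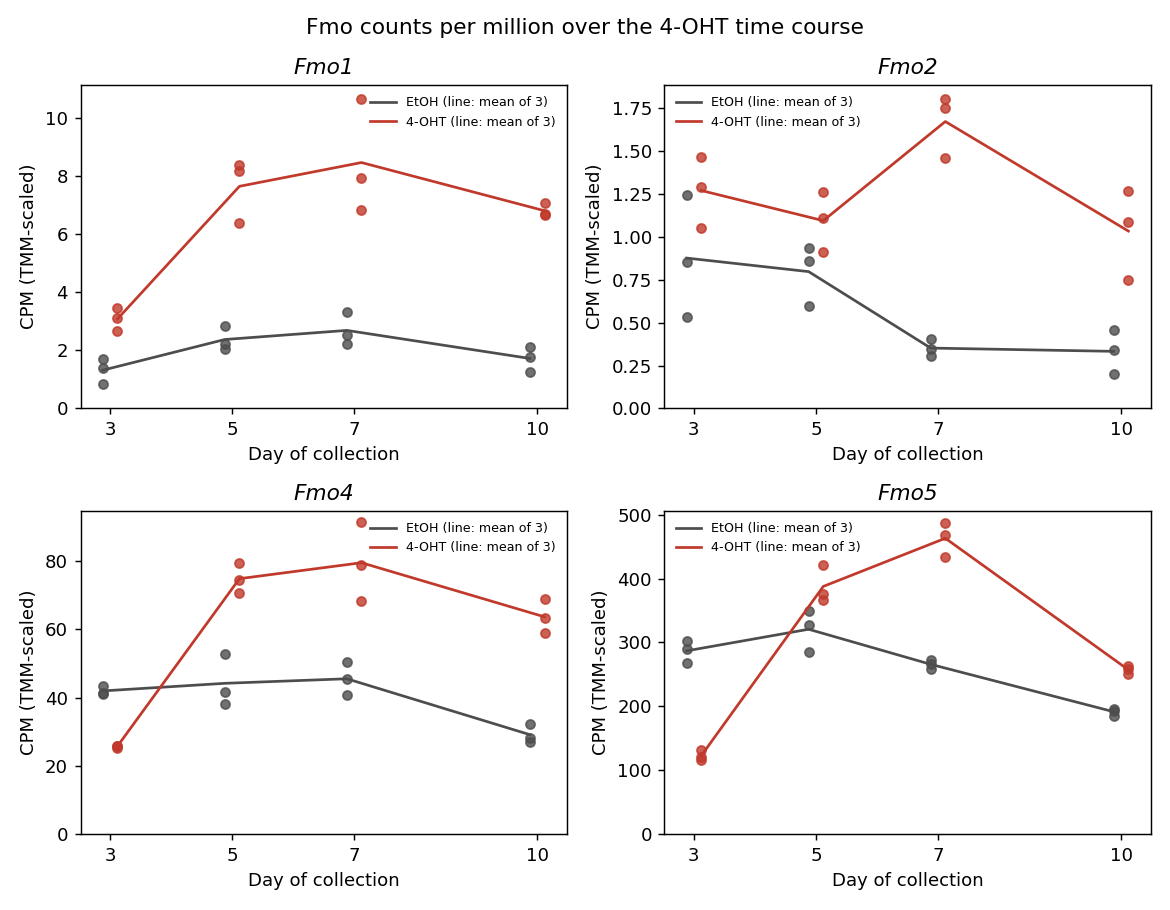
CPM of each member (1 panel per gene) on days 3, 5, 7 and 10 after 4-OHT or EtOH in VillinCreERT2/Cdk8 fl/fl/Cdk19 -/- organoids. Points are cultures and lines join group means (n = 3). Fmo4 and Fmo5 start below the EtOH cultures on day 3 and stand above them from day 5, while Fmo1 is above them on each of the 4 days.

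**Figure D3:**
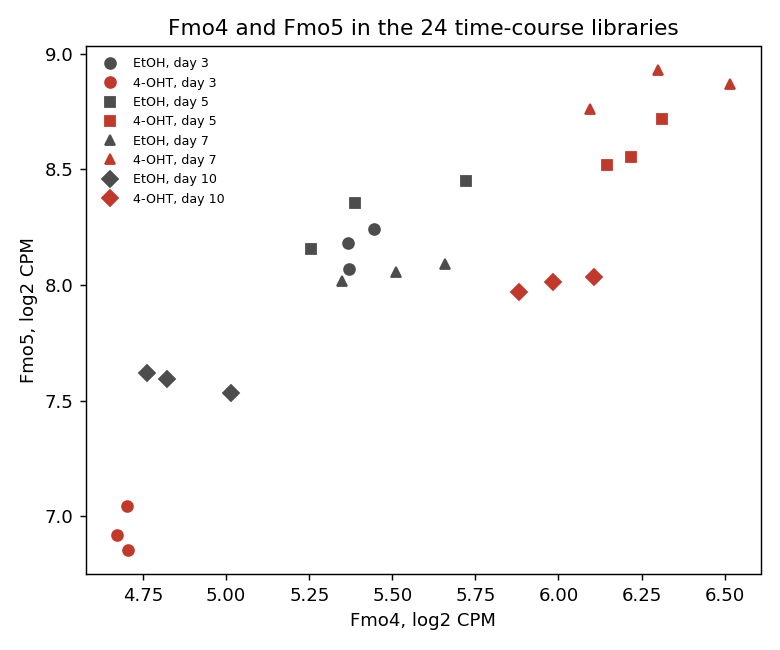
Log2 CPM of Fmo5 against log2 CPM of Fmo4 in the 24 time course libraries, by arm and day. The genes run together (Pearson r = 0.873), and the 3 cultures of day 3 after 4-OHT lie at the low end of both axes. The day 3 values of Fmo5 were used to choose that gene, so the plot is a description.

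Likeness among the members, and to all other genes, was measured over the libraries of the time course and of the lines. Over the 24 time course libraries Fmo4 and Fmo5 had a Pearson r of 0.873 on log2 CPM, and over the 15 libraries of the 5 lines 0.874. The time course value includes the day 3 levels of Fmo5 that chose the gene, and the value over the lines does not. Fmo1 had 0.746 with Fmo4, 0.593 with Fmo2 and 0.445 with Fmo5 in the time course. The genes most like Fmo4 were Stap2, a signal adaptor (0.977, and 0.936 over the lines), Cyp2d34, a cytochrome P450 of a family of near-identical copies whose counts are uncertain for that reason (0.973 and 0.890), and Fam20a, a secretory-pathway pseudokinase (0.967 and 0.476). Those most like Fmo5 were Abr (0.971 and 0.611), Myo1a, the myosin of the brush border (0.969 and 0.912), and Aoc1, the diamine oxidase (0.960 and 0.793). Nearest Fmo1 were Tmem52b (0.941 and 0.484), the endosomal chloride-proton exchanger Clcn5 (0.928 and 0.690) and the retinol dehydrogenase family gene Dhrs9 (0.925 and 0.831). For Fmo2 they were Ccng1, cyclin G1 (0.885 and 0.032), Lrrc26 (0.877 and 0.301) and the metal transporter Slc39a8 (0.871 and 0.426). The time course libraries share 1 line, a treatment and a series of days, so the values describe likeness only. For each of these 12 genes r was lower over the lines, which a choice of the highest r over the time course favours.

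In Wnt3-CM, Fmo4 and Fmo5 were higher after 4-OHT on day 10, and Fmo1 was higher as well from a very low base. Fmo1 was 2.63, 3.50 and 2.61 CPM after 4-OHT (53, 72 and 54 reads) and 0.0526, 0.262 and 0.421 CPM after EtOH (1, 5 and 8 reads). The arms were far apart, with a described log2 fold change of 3.54 ± 0.37 (SE) that rests on few EtOH reads. Fmo4 stood at 50.1, 45.0 and 45.1 CPM against 24.4, 20.7 and 19.4 CPM and rose 2.17-fold (1.12 ± 0.088, adjusted p = 9.97e-10). Fmo5 stood at 175, 206 and 179 CPM against 125, 108 and 118 CPM and rose 1.6-fold (0.68 ± 0.074, adjusted p = 1.92e-07). Neither gene's arms overlapped. Fmo2 stayed at the edge of detection, at 0.298, 0.583 and 1.06 CPM against 0.158, 0.577 and 0.474 CPM, overlapping (difference 0.68 ± 0.49, adjusted p = 0.267). Thus 2 of the 3 members tested were called, with 16.9% of 13745 genes called. Enterocyte markers overlapped between the arms (8903 to 9774 CPM after 4-OHT, 8488 to 9993 CPM after EtOH). Paneth cell markers were lower after 4-OHT (1921 to 2361 against 6928 to 7659.8 CPM), as were goblet cell (1728 to 1815 against 2517 to 3051 CPM) and tuft cell markers (1.94 to 2.43 against 18.0 to 21.8 CPM). Distal small intestine markers were lower too (337 to 388 against 437 to 476 CPM), and pancreatic markers were higher (9.48 to 16.7 against 0.579 to 1.68 CPM). The part of any of these in the Fmo values was not tested.

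The question whether the response differs between media was tested as the response in Wnt3-CM minus that in standard medium on day 10, across separate tables of the same line. It was -0.0075 ± 0.13 for Fmo4 (adjusted p = 0.972), 0.25 ± 0.10 for Fmo5 (adjusted p = 0.0586) and -0.93 ± 0.69 for Fmo2 (adjusted p = 0.34). None of the 3 was called, against 13.3% of 14337 genes, and 1 of the 3 had an unadjusted p below 0.05 by the edgeR test. The interval of the Fmo4 difference at a confidence level of 95%, -0.26 to 0.25 on the log2 scale from its SE, is narrow beside its response of 1.12. For Fmo1 the described difference was 1.56 ± 0.45, and it ran from 1.10 to 2.18 on leaving out single libraries.

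In organoids with the kinase-dead Cdk19 D173A allele, Fmo1 rose after 4-OHT, and this was not a value used to choose the genes. The cultures held 9.54, 8.87 and 11.3 CPM after 4-OHT and 2.73, 2.69 and 2.89 CPM after EtOH. All 4-OHT values lay above all EtOH values. The rise was 3.57-fold (log2 1.84 ± 0.14, SE; adjusted p = 1.27e-05), from 78 to 90 reads per EtOH library. Set beside it, the described day 7 response of Fmo1 with Cdk19 null was 1.65 ± 0.20, and the difference between the responses was 0.18 ± 0.27. The columns of these cultures were tied to their groups by elimination, as the only remaining organoid line with both treatments, with E and T in the column names read as EtOH and 4-OHT, and no label names the line.

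The other members moved less. Fmo4 was 101, 106 and 108 CPM after 4-OHT and 81.1, 75.5 and 77.0 CPM after EtOH, without overlap, but its difference of 0.43 ± 0.064 (adjusted p = 0.000738) was below 1.5-fold. Fmo5 was 366, 527 and 508 CPM against 338, 429 and 417 CPM, overlapping (0.24 ± 0.15, adjusted p = 0.284), with number 1 the lowest of both arms. Fmo2 was 1.73, 1.85 and 2.02 CPM against 1.64, 1.29 and 1.86 CPM, overlapping (0.22 ± 0.21, adjusted p = 0.487). Of 4 members tested, 1 was called, where 12.3% of 15457 genes were. Enterocyte markers summed to 22588 to 25786 CPM after 4-OHT and 17325 to 18960 CPM after EtOH, and Paneth cell markers to 1769 to 2105 CPM and 3456 to 3666 CPM. Tuft cell markers summed to 9.30 to 12.1 CPM against 40.4 to 44.1 CPM, enteroendocrine cell markers to 297 to 314 against 770.1 to 833 CPM and stem cell markers to 662 to 905 against 1126 to 1216 CPM. Their part in these values was not tested.

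The response with Cdk19 D173A minus that with Cdk19 null on day 7 was -2.02 ± 0.37 for Fmo2 (adjusted p = 0.00148), which was called. It was -0.56 ± 0.17 for Fmo5 (adjusted p = 0.0302), below 1.5-fold, and -0.38 ± 0.14 for Fmo4 (adjusted p = 0.0672). So 1 of 3 was called, where 11.1% of 15636 genes were. For Fmo2 the EtOH cultures of the null line held 8, 7 and 6 reads, so the difference leans on low counts there. The lines come from different mice, and the allele and the line cannot be told apart.

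**Figure D4:**
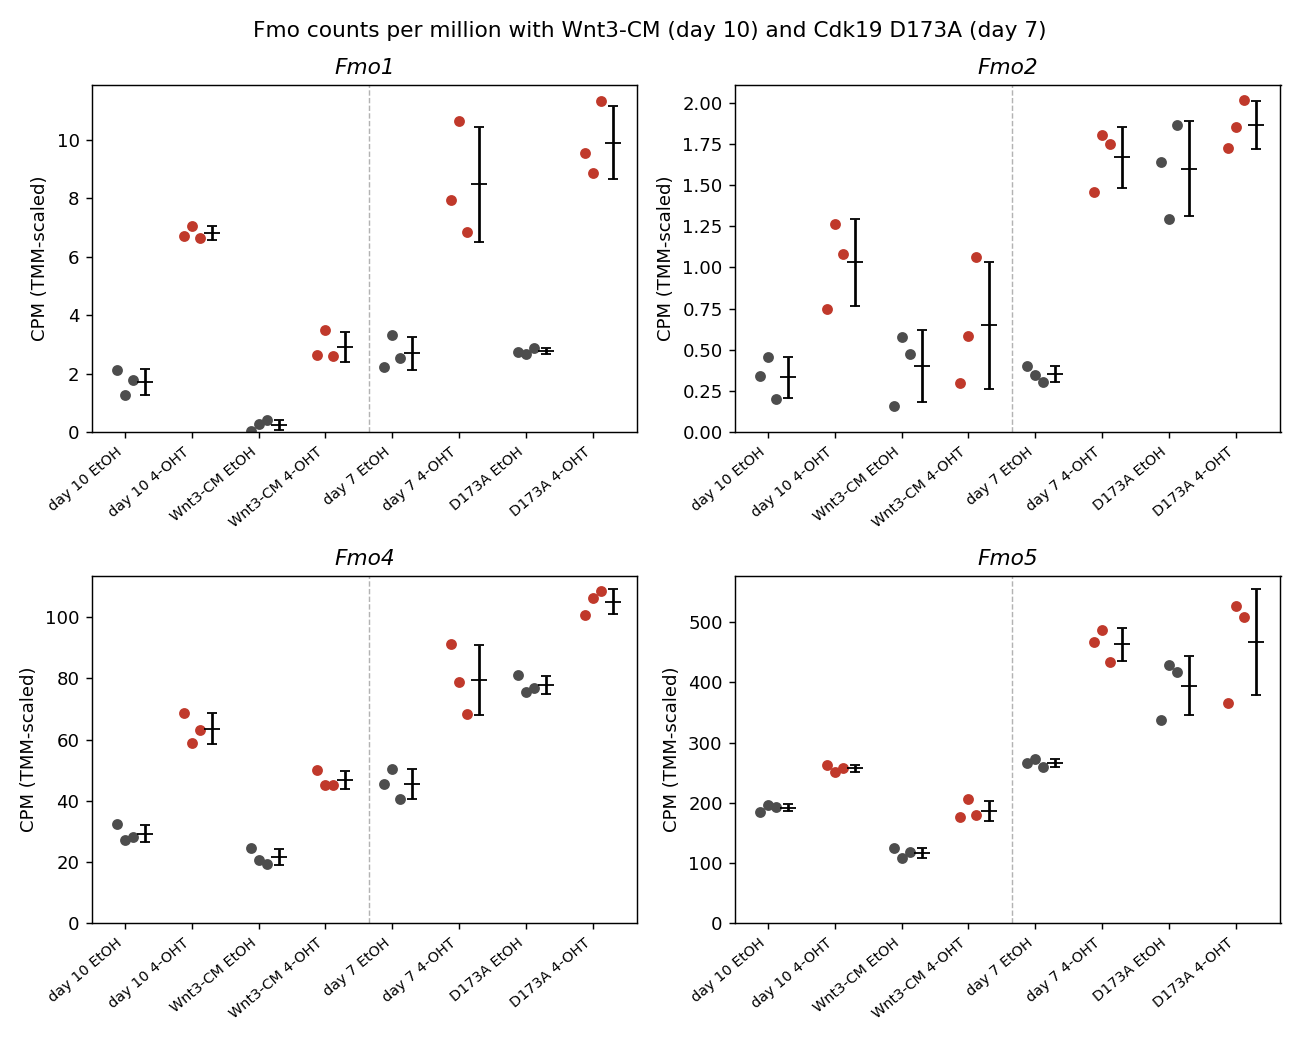
CPM of each member (1 panel per gene) after EtOH or 4-OHT, in Wnt3-CM beside standard medium on day 10 (left of the dashed line) and with Cdk19 D173A beside Cdk19 null on day 7 (right). Points are cultures, and the bars beside them give mean and SD (n = 3). Fmo1 runs from 8.87 to 11.3 CPM after 4-OHT with Cdk19 D173A and from 2.69 to 2.89 CPM after EtOH.

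**Figure D5:**
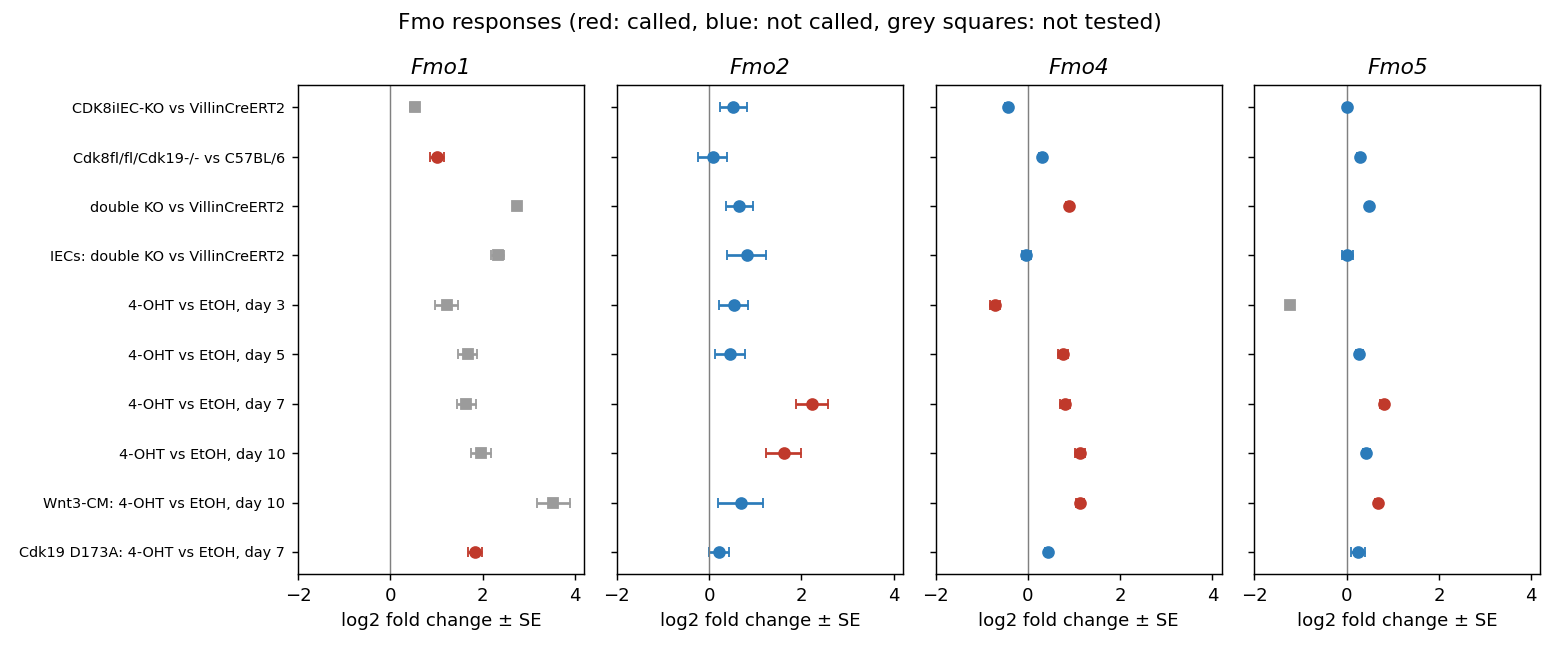
Log2 fold changes with SE (x axis) for the 4 members, 1 panel each, in the comparisons of knockout with control and of 4-OHT with EtOH. Red marks called values, blue values that were not called, and grey squares values on libraries used to choose the members, which were not tested. Fmo1 lies right of 0 in each double-knockout comparison, and Fmo4 and Fmo5 lie left of 0 on day 3 and right of it on days 5, 7 and 10.

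The cofactor, substrate and regulator genes around the family were read from fixed lists, each described by its counts beside the share of all genes called and the median over all genes. In double knockout against VillinCreERT2 organoids, 5 of 11 other flavin oxidoreductases that passed the filter were called higher and 2 lower, where 19.4% of all genes were called (median log2 0.34, all genes -0.0021). Kmo, which hydroxylates kynurenine, rose by 1.59 on the log2 scale and Xdh, xanthine dehydrogenase, by 1.21, whereas Maoa, monoamine oxidase A, changed by -1.20. Of the 5 genes of riboflavin and FAD supply, the riboflavin transporter Slc52a3 was called (0.63, median 0.13). Among 6 genes of the cysteamine and taurine pathway 2 were lower (median -0.13), the bile acid conjugating enzyme Baat by -1.45 and the taurine transporter Slc6a6 by -0.65. Of 10 nuclear factors and xenobiotic receptors, the constitutive androstane receptor Nr1i3 was called (0.66, median 0.036), and 0 of 6 genes of NADPH supply and 0 of 2 methionine sulfoxide reductases were. In IECs, where 1.5% of all genes were called, Maoa changed by -0.86 (1 of 11 oxidoreductases) and the sulfoxide reductase Msrb2 by 2.65 (1 of 4), and 0 genes of the other 4 lists were called.

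In the time course, the called nuclear factors were lower on day 3 and the called oxidoreductases were higher on days 7 and 10. On day 3, 3 of 10 nuclear factors and receptors were lower and 0 higher, against 12.4% of all genes called (median -0.51, all genes -0.022): Nr1i3 changed by -1.66, Ppara, the fatty acid receptor, by -1.36 and Hnf4g, a hepatocyte nuclear factor of the gut, by -1.35. Of 10 flavin oxidoreductases on day 3, 1 was higher (Smox, spermine oxidase, 1.03) and 2 lower (Maoa -1.01, Dpyd -0.72). The methionine sulfoxide reductase Msra changed by -0.69, Baat by -1.66 and Me1, malic enzyme, by 1.14 on that day. On day 5, with 13.2% of all genes called, Xdh was higher (1.04) and Cdo1, cysteine dioxygenase, lower (-1.17). These are single genes, and nothing is read from them about their lists. On day 7, 4 of 10 oxidoreductases were higher and 0 lower, against 18.3% of all genes (median 0.44, all genes -0.0087), led by Xdh (1.27), Dpyd, which reduces pyrimidines, (0.95) and Nqo2 (0.77), with both Slc52a3 (1.29) and the riboflavin kinase Rfk (0.64) higher. The bile acid receptor Nr1h4 (0.93), Vnn3 (1.95) and Msra (0.63) were higher too and Cdo1 lower (-1.15). The pantetheinase Vnn1 was also called, with no read in any EtOH culture of day 7, so no size is given. On day 10, 4 of 10 oxidoreductases were higher and 0 lower, against 15.8% of all genes (median 0.52, all genes 0.020), including Xdh (1.05), Nqo1 (1.00) and Dpyd (0.83), with Nr1i3 (0.87), Nr1h4 (0.74), Idh1 (0.75), Baat (1.59), Msra (0.64) and Slc52a3 (0.61), and Cdo1 lower (-1.19). For later responses minus day 3, 6 of 10 nuclear factors and receptors were positive and 0 negative, against 23.1% of all genes called (median 0.78, all genes 0.031), led by Nr1i3 (2.17), Hnf4g (1.56) and Ppara (1.54), and 5 of 10 oxidoreductases were positive and 1 negative (median 0.76).

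With Wnt3-CM, 3 of 6 genes of NADPH supply were higher (Idh1 1.10, Pgd 0.78, Me1 0.59; median 0.44, all genes 0.00073; 16.9% of all genes called), as were 2 of 10 nuclear factors and receptors (Ppara 1.21, Nr1i3 0.90). Of 9 oxidoreductases 2 were higher (Dpyd 1.08, Nqo1 1.06) and 1 lower (Smox -0.90). With Cdk19 D173A, the same 3 NADPH genes of 6 were higher (Me1 1.58, Pgd 0.62, Idh1 0.61; median 0.46, all genes 0.0053; 12.3% of all genes called), and 5 of 11 oxidoreductases were higher and 0 lower (median 0.55), led by Maob (2.85), Kmo (1.37) and Xdh (0.73). Ahr, the aryl hydrocarbon receptor, was the 1 of 10 nuclear factors and receptors called there (0.66). Between the control lines, C57BL/6 against VillinCreERT2 organoids, with 26.4% of all genes called (median 0.017), 3 of 11 oxidoreductases were higher and 2 lower (median 0.018), among them Maob (-7.26), Nqo1 (-1.06) and Kmo (1.01). Of the nuclear factors and receptors, Nr1i3 was higher (0.92) and Ppara lower (-0.77), and 3 of 6 genes of NADPH supply and 3 of 6 of the cysteamine and taurine pathway were lower and 0 higher (medians -0.62 and -0.81).

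Neighbouring genes are given for their position beside the family. Of the 3 nearest protein-coding genes on each side of the chromosome 1 Fmo genes, Prrc2c, Prrx1 and Gorab passed the filter. Prrc2c, 52.6 kb away, was called on day 10 (-0.71), and Gorab, 400.4 kb away, in no comparison. Prrx1, a homeobox gene of mesenchyme 260.6 kb away, was called higher in double knockout against VillinCreERT2 (1.59) and against CDK8iIEC-KO (1.18), on day 7 (1.26), on day 10 (1.36) and in Wnt3-CM (0.60), in later responses minus day 3 (1.46) and, negative, in Wnt3-CM minus standard medium (-0.76), and also in C57BL/6 against VillinCreERT2 (1.88), a pair in which Fmo1 was lower. Beside Fmo5, 4 of 6 neighbours passed. Prkab2, a subunit of AMP-activated kinase that starts 2.9 kb beyond Fmo5, was called on day 5 (0.59), in C57BL/6 against VillinCreERT2 (0.59) and in EtOH day 10 against day 3 (-1.51), and Bcl9, a cofactor of Wnt signaling, on day 10 (-0.78), in EtOH day 10 against day 3 (-1.09), with Cdk19 D173A (-0.60), in Wnt3-CM minus standard medium (0.68) and in Cdk19 D173A minus null (-0.59). Chd1l, a chromatin remodeler, was called in EtOH day 10 against day 3 (0.61). On day 3 and in IECs 0 of the 7 neighbours were called, where 12.4% and 1.5% of all genes were.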

How the data were processed

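Poly(A) RNA of organoids and IECs was sequenced (paired-end, 100 bases). The deposited files are 4 tables of raw counts per gene, made by the authors with STAR 2.5.2 and featureCounts of Subread 1.6.3 on mm10, per the submitters' processing notes; strandedness is not given in the sources used here. Of 63 samples, 57 were used: the 6 columns of Cdk19 D173A IECs could not be tied to a group by name. Counts were taken as deposited and analysed with edgeR 4.0.16 in R 4.3.3: filterByExpr, TMM, robust quasi-likelihood F test with group as the only term, Benjamini-Hochberg adjustment over all genes tested, calls at adjusted p under 0.05 and fold over 1.5. There was 1 fit per experiment. For each difference of responses between experiments 12 libraries entered, and the later-minus-day-3 difference came from the fit of the 24 time course libraries. All 4 members passed each filter. SE are of log2 fold changes, and correlations used log2 CPM with a prior count of 2. Alternatives were limma-voom (limma 3.58.1), DESeq2 1.42.0, upper quartile scaling, other filters, fits of the compared groups only, a replicate block, single-library omission and, added after seeing the data, omission of both IEC libraries numbered 2 and the block on differences of responses. Scripts were tested on simulated counts. No replicate pair agreed within sampling noise. Text names the members, the 3 genes most like each over the 24 time course libraries, up to 3 called genes per list and the 3 nearest coding genes per side. Members and lists were chosen with earlier results of these data known.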

Additional observations from a re-analysis of the deposited data

Results flagged for a closer look

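Differences in 6 results stood out because the same gene behaved differently in 2 settings and the difference itself was tested with edgeR (Benjamini-Hochberg adjusted p). In the double-knockout organoid line Fmo4 was higher by 1.32 on the log2 scale than in the CDK8iIEC-KO line (adjusted p = 3.1e-15), and Fmo5 was higher by 0.48 (adjusted p = 1.62e-07), below the 1.5-fold cutoff. The mean 4-OHT response of days 5, 7 and 10 exceeded that of day 3 by 1.6 for Fmo4 (adjusted p = 4.99e-11) and by 0.90 for Fmo2 (adjusted p = 0.048), the latter a call lost under 5 other settings and on leaving out 17 of the 24 libraries in turn. The day 7 response with Cdk19 D173A minus that with Cdk19 null was -2.02 for Fmo2 (adjusted p = 0.00148) and -0.56 for Fmo5 (adjusted p = 0.0302), the latter below 1.5-fold. Both the D173A differences and those between the double-knockout and CDK8iIEC-KO lines set lines of different mice against each other.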

How the results depend on the processing

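Over 985 refits of 68 results, 947 stayed on the same side of the cutoffs or, where untested, within the spread of the replicates, 23 lost a call, 13 gained one and 2 moved. In 23 of the 947 the sign changed, for 8 results that were not called and had a reported size of at most 0.12; no called or described change turned its direction. Fmo2 in double knockout against VillinCreERT2 organoids became called with upper quartile scaling (0.70), with a minimum of 10 counts per library (0.66), a fit of those groups alone (0.66) and the mean of both controls (0.61). With that mean, Fmo1 was 3.59 in the double knockout, 1.37 in CDK8iIEC-KO and 0.17 in Cdk8fl/fl/Cdk19-/- organoids (call lost). The Fmo2 response of later days minus day 3 lost its call without the filter (0.90), with upper quartile scaling (0.86), limma-voom (0.82), DESeq2 (0.90) and the replicate block (0.90). EtOH day 10 against day 3 became called for Fmo4 with at least 10 counts (-0.61) and upper quartile scaling (-0.61). The Fmo5 difference between Cdk19 D173A and null became called with upper quartile scaling (-0.59). Without both IEC libraries numbered 2 the Fmo2 value was 1.53, which is not read as a call since they were the lowest and the highest of their groups. The cause of the other changes was not tested.

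Leaving out single libraries gave 0.55 to 1.14 for the Fmo2 later-minus-day-3 response (call lost in 17 of 24), -0.60 to -0.47 for Fmo4 in EtOH day 10 against day 3 (called without EtOH replicate 1 of day 10), and -0.67 to -0.41 for Fmo5 in Cdk19 D173A minus null, called without D173A EtOH replicate 1 (-0.67), D173A 4-OHT replicate 2 (-0.66) or 3 (-0.63), or null 4-OHT replicate 3 (-0.61). Values that were not called or not tested and moved over 1.5 times, in log2 value or fold, were Fmo2 in CDK8iIEC-KO (0.32 to 0.72), in IECs (0.54 to 1.29), on days 3 (0.29 to 0.87) and 5 (0.27 to 0.56), in Wnt3-CM (0.14 to 1.03), with Cdk19 D173A (0.069 to 0.33) and in Wnt3-CM minus standard medium (-1.48 to -0.59), Fmo5 with Cdk19 D173A (0.12 to 0.39), and Fmo1 in EtOH day 10 against day 3 (0.14 to 0.60), in later minus day 3 (0.30 to 0.77), in Wnt3-CM (3.07 to 4.16), in its difference from standard medium (1.10 to 2.18) and in Cdk19 D173A minus null (0.00011 to 0.38), leaving aside reported values under 0.15 in size. Same-numbered replicates correlated between -0.410 and 0.379, and in each comparison at least 1 pair was below 0.1 (lowest 0.0951 in Wnt3-CM and 0.0950 with Cdk19 D173A, by the numbers in the column names), so the numbers were not taken to pair the samples. The replicate block changed no other call. With it, Fmo5 with Cdk19 D173A was 0.23 (adjusted p = 0.00601) and the Fmo4 difference between Cdk19 D173A and null -0.37 (adjusted p = 0.00972), both still below 1.5-fold, and the block on both differences of responses was added after seeing the data. With at least 10 counts in every library, Fmo2 gave no value in the time course, Wnt3-CM or either difference of responses, nor Fmo1 in Wnt3-CM or its difference. The planned comparison of Cdk19 D173A IECs was not run, since their columns could not be tied to groups. Fmo2 and Fmo1 in EtOH cultures rest on few reads, which limits their precision.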
